A study of Mus musculus with 41 samples.

Results

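The comparison described here is that of Brd8 guides with a non-targeting control (NT) at day 7 of neural differentiation, 6 of the 41 libraries of the series. Members were taken by their labels: the 3 libraries of the Brd8 knockout at day 7 and the 3 NT libraries of the same day, with every expressed gene read. Both groups came from R1-iCas9, a mouse embryonic stem cell line in which doxycycline switches on Cas9, and both were exposed to doxycycline. The cells were driven towards the ventral spinal cord with bFGF, the GSK3 inhibitor CHIR99021, retinoic acid and the Smoothened agonist SAG. Brd8 cells received a pool of 5 synthetic guides against that gene at day 0 and NT cells 1 commercial non-targeting guide, so the Brd8 libraries came from mixed pools of cells and not from a clone, and the edited share was not measured here. The labels do not say that replicates came from separate cultures, and p-values therefore measure the spread between libraries, which may be technical. That spread was estimated over all 41 libraries of the series, not over these 6 alone. Ribosomal-RNA-depleted RNA was sequenced, and the 6 libraries held 10123967 to 22537993 estimated counts.

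Brd8 is a bromodomain protein of the NuA4/TIP60 complex, which acetylates histones H4 and H2A and helps place the histone variant H2A.Z at promoters. In the developing spinal cord, progenitors take their identity from opposed signals: Hedgehog from the ventral side induces Nkx2-2 and Olig2, and BMP and Wnt from the dorsal side induce Pax3, Pax7 and Msx genes. Hox genes set the level along the head-to-tail axis, and proneural factors move progenitors into the neuron programme marked by Tubb3, Elavl3 and Dcx.

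At day 7, cells with Brd8 guides held more RNA of dorsal and intermediate progenitor genes, neural crest genes, trunk Hox genes and glycolytic enzymes, and less of pan-neuronal, synaptic and pluripotency genes. Of 15204 genes tested, 198 were higher and 524 lower with Brd8 guides at an adjusted p under 0.05 (edgeR's quasi-likelihood test, Benjamini-Hochberg adjustment), which is 4.75% of all genes, 1.3% higher and 3.45% lower. Most differences were small: 69 of the higher and 54 of the lower genes differed by at least 2-fold, and the median log2 fold change was 0.68 among the higher genes, -0.47 among the lower and 0 over all genes tested. The 3 Brd8 libraries did not overlap the 3 NT libraries in 3776 genes, 24.8% of those tested. Lack of overlap was required of the genes named below by fold, so it adds no support to their tests.

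**Figure D1:**
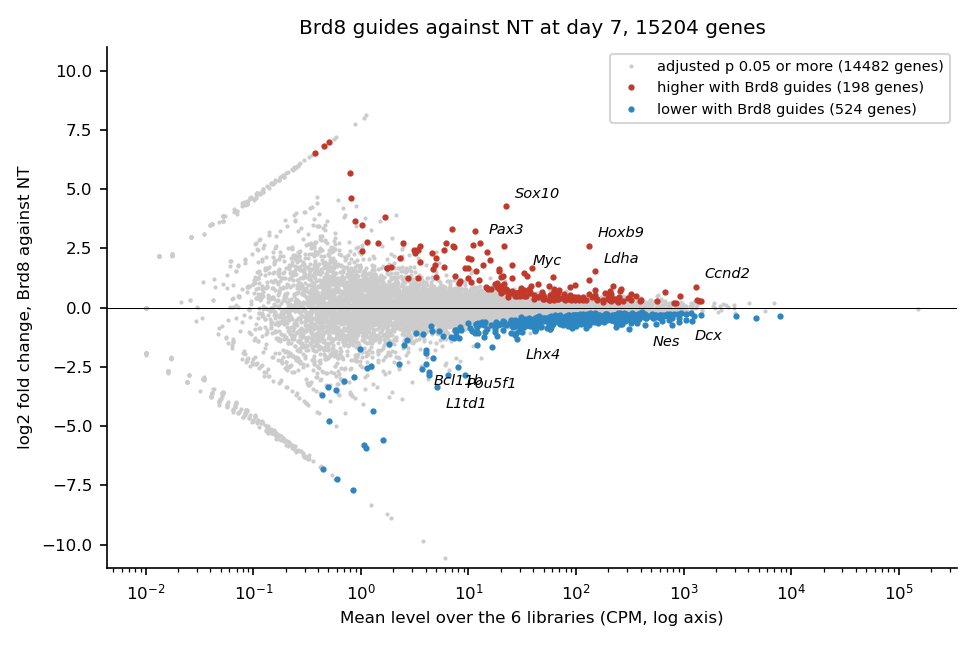
Log2 fold change between Brd8 guides and NT at day 7 against the mean level of each gene over the 6 libraries in CPM (log axis). Red points are the 198 genes called higher, blue points the 524 called lower and grey points the genes not called; blue points are more numerous, while most red and blue points above 100 CPM lie within 1 unit of 0.

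The 3 Brd8 libraries were not equally far from NT. Over the 722 called genes, replicate 3 was the Brd8 library nearest to the NT mean for 470 and replicate 1 the farthest for 437. The number of calls was 233 without Brd8 replicate 1, 452 without Brd8 replicate 2 and 899 without Brd8 replicate 3, and 422 or 352 when NT replicate 2 or 3 was left out. Genes given below with values as called at day 7 passed in every alternative that tested them, unless a library is named beside them. Calls of single genes at day 9 or day 11 alone were not checked in this way.

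The targeted transcript itself was little lower. Levels are given in CPM, the counts of a gene scaled to a common library size. Brd8 stood at 87.8, 87.9 and 94.7 CPM in the 3 Brd8 libraries and at 101, 112 and 99.6 CPM in the 3 NT libraries. The groups did not overlap, but the log2 fold change of -0.21 ± 0.0947 (SE; 95% interval -0.40 to -0.02) did not pass (adjusted p = 0.221). Small insertions and deletions need not lower a transcript, so this level does not check the edit. None of 17 other tested NuA4/TIP60 subunits passed, and their median log2 fold change was 0.01; 6 had an unadjusted p under 0.05 and 3 were called by the DESeq2 Wald test. The lowest was Epc1, which bridges the acetyltransferase module, at -0.37 (adjusted p = 0.0636), and the highest Ruvbl1, an ATPase of the complex, at 0.43 (adjusted p = 0.0728). Trrap, its scaffold, stood at 485 ± 29 CPM against 562 ± 11.6 (SD, n = 3 each), a log2 fold change of -0.21 (adjusted p = 0.0521). Those 3 calls of the DESeq2 Wald test were Trrap, Epc1 and Ruvbl1. Trrap also passed with the replicate number as a block (0.0358), without Rn45s (0.048), with only the 2 groups in the fit (0.0379) and without the low-agreement libraries (0.0398). Epc1 and Ruvbl1 also passed with no low-count filter and in both fits on fewer groups.

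The libraries carried the markers of their label. Sox2, the defining factor of neural progenitors, stood at 145 to 156 CPM with Brd8 guides and 125 to 151 in NT. Olig2, which marks motor neuron progenitors, stood at 166, 166 and 261 CPM with Brd8 guides and at 282, 281 and 280 in NT, a log2 fold change of -0.50 that did not pass (adjusted p = 0.0602). Olig2 did pass without Brd8 replicate 3 (0.00385), when no gene was filtered out (4.41e-06), and with only the 2 groups (0.0138) or day 7 libraries (0.0391) in the fit. T, Cdx2, Tbx6, Myod1 and Gata6, defining genes of tail bud, mesoderm, muscle and endoderm, were at or below 2.1 CPM in all 6 libraries. Other members of these lists were expressed. The tail bud list summed to 333.2 to 385.7 CPM with Brd8 guides and 358.6 to 384.1 in NT. The endoderm and surface epithelium list summed to 118.4 to 139 CPM with Brd8 guides and 139.9 to 143.7 in NT. The summed mesoderm markers were 104 to 113.5 CPM with Brd8 guides and 74.39 to 97.82 in NT, and the muscle markers 24.27 to 81.06 against 22.08 to 37.57; their part in the results was not tested. In bulk RNA, fewer cells of a type and less RNA per cell cannot be told apart.

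Dorsal and intermediate progenitor genes rose. Of 25 tested members of that list, 9 were higher and 0 lower, and the median log2 fold change was 0.90. Pax3, a paired-box factor of the dorsal neural tube (GRCm38 chr1:78101267-78197134), stood at 28.1, 25.6 and 13.2 CPM in the Brd8 libraries against 3.77, 4.79 and 1.23 in NT. Every Brd8 library lay above every NT library, and Pax3 was 6.73-fold higher (log2 2.75 ± 0.521 SE, adjusted p = 0.00125). Dbx1, which marks the intermediate progenitors that give rise to V0 interneurons (chr7:49631499-49636849), stood at 60.7, 72.1 and 46.7 CPM against 21.9, 23.5 and 10.9. The groups were again apart, with Dbx1 3.15-fold higher (adjusted p = 0.00197). The other called members were Pax7, Msx3, Prdm12, Bmp4, Bmp7, Wnt1 and, named after its values were seen, Zic4. The count of 9 became 3 or 4 when Brd8 replicate 1 or 2 was left out, 5 when either NT replicate 1 or 2 was, and 3 in the absence of NT replicate 3.

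Further progenitor factors with broad or dorsal domains rose as well. Zic1, a zinc-finger factor of the dorsal neural tube, held 46.5, 50.8 and 21.1 CPM against 7.25, 13.7 and 14.2 in NT (3.45-fold, adjusted p = 0.00107). Pax6 held 119, 117 and 104 CPM against 68, 64.8 and 51.8 (1.83-fold, adjusted p = 0.0041). Gli3, the main transcriptional repressor of the Hedgehog response, held 216, 178 and 148 CPM against 86.8, 82.8 and 72.7 (2.24-fold, adjusted p = 0.00114). For each of these 3 genes the Brd8 libraries lay above all NT libraries. Id3, an inhibitor of bHLH factors that BMP induces, was 1.88-fold higher (72.9 ± 15.5 CPM against 38.8 ± 2.27, SD, n = 3 each; adjusted p = 0.0011). Fgf15, a secreted FGF of the neural tube, stood at 19.1, 22.4 and 10.3 CPM against 5.75, 2.29 and 4 (4.17-fold, adjusted p = 0.00755, and 0.0628 without NT replicate 2).

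**Figure D2:**
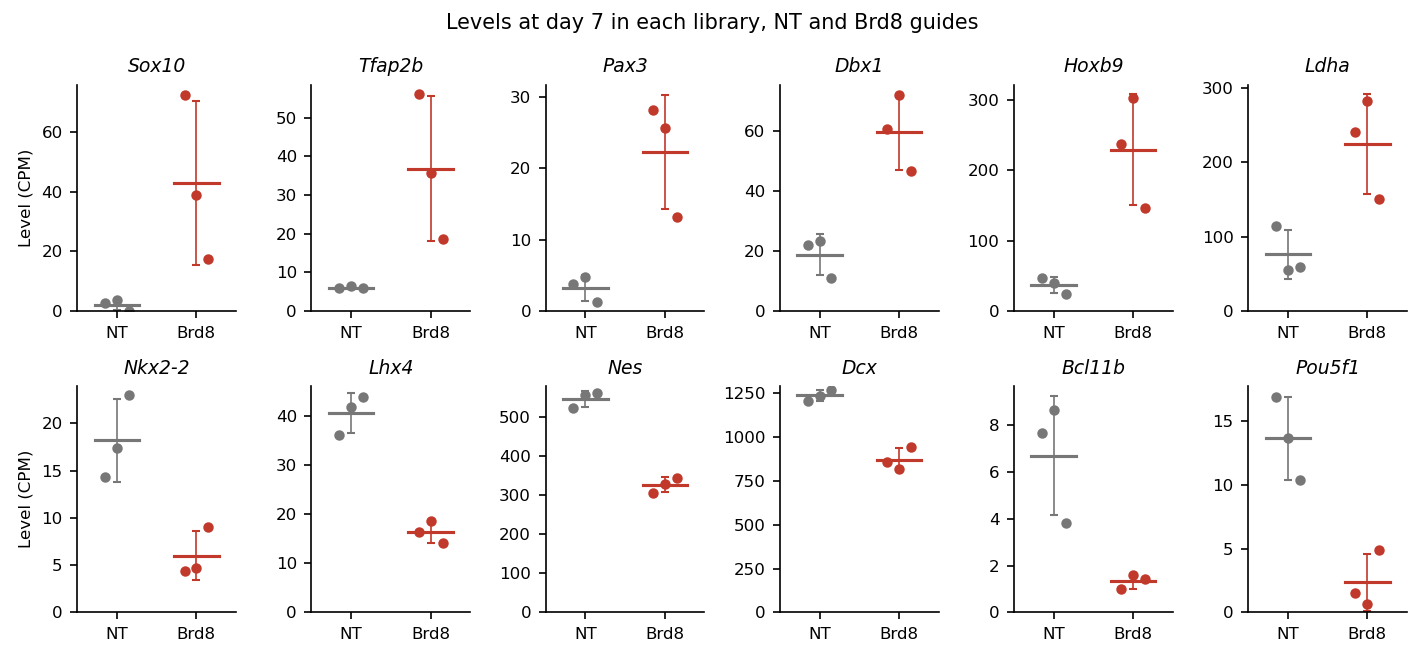
Level in CPM of 12 genes in each of the 3 NT (grey) and 3 Brd8 (red) libraries at day 7, with the mean as a horizontal bar and the SD as an error bar; each panel has its own axis from 0. In all 12 panels the 2 groups are apart: 6 genes are higher with Brd8 guides (Sox10 to Ldha) and 6 lower (Nkx2-2 to Pou5f1). The genes were picked among those called in this same comparison, and naming by fold required no overlap, so the separation is no further support.

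Of 20 tested ventral and Hedgehog-response genes, 3 were lower and 2 higher, with a median of -0.27; 5 were lower with no low-count filter and in the fit on the 2 groups. Nkx2-2, induced by the strongest Hedgehog signal (chr2:147177546-147194243), stood at 4.34, 4.72 and 9.01 CPM with Brd8 guides and at 14.3, 17.4 and 23 in NT. No Brd8 library reached an NT library, and Nkx2-2 was 2.96-fold lower (adjusted p = 0.000415). Ptch1, the Hedgehog receptor and a direct target of the pathway, was 1.36-fold lower (516 ± 81.5 CPM against 702 ± 21, SD, n = 3 each; adjusted p = 0.000489). The third lower member, Nkx2-9, was named after its values were seen and had an adjusted p of 0.0178, which became 0.139 and 0.0789 without Brd8 replicates 1 and 2 and 0.0739 and 0.0759 without NT replicates 2 and 3. Boc, a Hedgehog co-receptor that the pathway represses, was higher at 85.2, 102 and 75.2 CPM against 40.9, 39.9 and 26.1 (2.44-fold, adjusted p = 0.000211). The second higher member was Gas1, also a co-receptor, and the count of 2 was 1 without Brd8 replicate 1, Brd8 replicate 2 or NT replicate 2. Nkx6-1, a broad ventral factor, had a log2 fold change of -0.58 that did not pass (adjusted p = 0.305), except with no low-count filter (3.05e-05) and in the fit on the 2 groups (0.000894).

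Neural crest genes rose. Of 17 tested members 5 were higher and 0 lower, with a median of 0.55; the count was 3 without Brd8 replicate 1 and 3 without NT replicate 3. Sox10, the factor that specifies crest and later oligodendrocytes (chr15:79154908-79165240), stood at 72.2, 39 and 17.5 CPM in the Brd8 libraries and at 2.56, 3.75 and 0 in NT, where 3 counts in the library with none would be 0.308 CPM. The Brd8 libraries spread widely, and the lowest lay above every NT library. Sox10 was 19.5-fold higher (log2 4.29 ± 0.593 SE, adjusted p = 4.84e-05). Tfap2b, an AP-2 factor of the crest, stood at 56, 35.7 and 18.5 CPM against 5.84, 6.35 and 5.85 (6.12-fold, adjusted p = 0.000584). Erbb3, the neuregulin receptor of crest and glial precursors, stood at 28.3, 18.3 and 11.1 CPM against 4.64, 1.67 and 2.15 (6.24-fold, adjusted p = 0.00347). Replicate 1 was the highest and replicate 3 the lowest Brd8 library for all 3 genes. Foxd3 and Tfap2a were the other called members. Outside the list, Postn, a matrix protein, was 9.97-fold higher (12.8 ± 7.6 CPM against 1.33 ± 0.623, SD, n = 3 each; adjusted p = 0.000139) and Npr3, the natriuretic peptide clearance receptor, 6.71-fold higher (adjusted p = 0.000936). Left-out libraries moved these values: the log2 fold change of Sox10 was 3.67 without Brd8 replicate 1, that of Erbb3 went from 2.64 to 3.32 without NT replicate 1, and that of Npr3 from 2.75 to 3.47 without NT replicate 2. The summed level of the 17 crest genes was 545.9 to 713.5 CPM with Brd8 guides and 442.8 to 473.8 CPM in NT.

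Among Hox genes the trunk groups rose. Of 12 tested genes of groups 6 to 9, 7 were higher and 0 lower (median 0.93; 3 without NT replicate 3), against 1 of 15 of groups 1 to 5 (Hoxb1; median 0.15) and 0 of 8 of groups 10 to 13 (edgeR; 0 by DESeq2 and 0 with an unadjusted p under 0.05). The 8 genes of groups 10 to 13 together summed to 0.21 to 2.61 CPM with Brd8 guides and 1.98 to 2.81 in NT. Of these, 4 had no counts in at least 1 of the groups, so the test could say little about them. Hoxb9, which marks thoracic levels (chr11:96271457-96276595), stood at 237, 303 and 146 CPM with Brd8 guides and at 46.3, 40.2 and 24 in NT. The groups did not overlap, and Hoxb9 was 6.12-fold higher (log2 2.61 ± 0.309 SE, adjusted p = 4.85e-06). Hoxc6, of the limb and brachial level, stood at 57, 60.8 and 32.6 CPM against 23.7, 23.5 and 12.1 (2.5-fold, adjusted p = 0.00125). Hoxb8 stood at 214, 195 and 162 CPM against 116, 91.7 and 129 (1.7-fold, adjusted p = 0.000835). Hox clusters carry overlapping and antisense transcripts, and how the authors' counting treated strand is not given in the sources used here. Cyp26b1, which degrades retinoic acid, was 4.25-fold higher (14.1, 22.7 and 11 CPM against 3.58, 1.98 and 5.64; adjusted p = 0.00017), while Meis2, a Hox cofactor that retinoic acid induces, was 1.35-fold lower (377 ± 17.9 CPM against 510 ± 26.6, SD, n = 3 each; adjusted p = 0.00153). They were the 2 called genes of 19 tested on the retinoic acid list.

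Most pan-neuronal genes fell, by small amounts. On the pan-neuronal and synaptic list log2 fold changes ran from -0.79 (Syt4) to 0.40 (Cntn1). Of 32 tested pan-neuronal and synaptic genes 17 were lower and 0 higher, and 30 had a log2 fold change below 0 (median -0.47); 8 were lower without Brd8 replicate 1. Of 28 proneural and neurogenesis genes 11 were lower and 2 higher (median -0.27), and the 11 became 5 without Brd8 replicate 1, 7 without Brd8 replicate 2 and 7 without NT replicate 3. Dcx, a microtubule protein of migrating neurons (chrX:143855842-143933311), stood at 861, 816 and 941 CPM with Brd8 guides and at 1208, 1237 and 1269 in NT. All Brd8 libraries lay below all NT libraries, and Dcx was 1.42-fold lower (log2 -0.50 ± 0.102 SE, adjusted p = 0.00214). Tubb3, the neuronal tubulin, stood at 740, 569 and 685 CPM against 911, 899 and 881 (1.35-fold lower, adjusted p = 0.00153). The RNA-binding proteins Elavl3 and Elavl4 were 1.36-fold and 1.39-fold lower (adjusted p = 0.0018 and 0.00125). Ncam1, the neural adhesion molecule, was 1.46-fold lower (978 ± 98.8 CPM against 1430 ± 45.5, SD, n = 3 each; adjusted p = 0.00166). Gap43, a growth-cone protein named after its values were seen, was also 1.46-fold lower, and Syt4, a synaptotagmin, 1.73-fold lower. Nmnat2, an enzyme that keeps axons alive, stood at 190, 194 and 261 CPM against 418, 382 and 404 (1.86-fold lower, adjusted p = 1.72e-05). Add2 (a cytoskeletal adducin, 1.63-fold), Nova2 (a neuronal splicing factor, 1.6-fold) and Plxna4 (a semaphorin receptor, 1.57-fold) were lower by similar amounts.

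Neurog3, a proneural bHLH factor named after its values were seen, had 32 counts over the Brd8 libraries and 0 over NT. It was at least 12.4-fold higher against a floor of 3 counts over the NT group (adjusted p = 0.00259), and its levels of 0.409, 0.735 and 1.58 CPM were low. The count of 2 higher genes on the proneural list was 1 without Brd8 replicate 1, Brd8 replicate 2, NT replicate 2 or NT replicate 3.

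Motor neuron genes were mostly not called: 1 of 20 was lower and 0 higher, with a median of -0.27. The called member was Lhx4, a LIM factor of motor neuron and V2 precursors (chr1:155698031-155751684), at 16.4, 18.7 and 14.2 CPM with Brd8 guides and 36.2, 42 and 43.8 in NT. No library of 1 group reached the other, and Lhx4 was 2.47-fold lower (adjusted p = 0.000115). Isl1, the LIM factor of postmitotic motor neurons, had a log2 fold change of -0.11 (adjusted p = 0.85). Spinal interneuron genes went the other way: of 32 tested, 3 were higher and 0 lower, with a median of 0.41 and 24 above 0. That list summed to 371.5 to 385.9 CPM with Brd8 guides and 273.4 to 302.5 CPM in NT. Bcl11b, a zinc-finger factor of maturing neurons, stood at 0.982, 1.57 and 1.42 CPM against 7.63, 8.64 and 3.8 (5.14-fold lower, adjusted p = 0.00017).

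Neural progenitor genes were split: of 20 tested, 3 were higher and 2 lower, with a median of -0.01. The 2 became 1 without Brd8 replicate 1, Brd8 replicate 2, NT replicate 1 or NT replicate 2. Zic1, given above, was the highest member and Nes the lowest. Nes, the intermediate filament of neural progenitors, fell although Sox2 did not pass. Nes (chr3:87971078-87980451) stood at 305, 328 and 343 CPM with Brd8 guides and at 522, 554 and 559 in NT, with little spread inside either group. It was 1.67-fold lower (log2 -0.74 ± 0.104 SE, adjusted p = 4.84e-05). Late progenitor and gliogenic genes were split: of 23 tested, 4 were lower (2 without Brd8 replicate 1) and 1 higher. Ptprz1, a receptor phosphatase of radial glia, stood at 74.4, 97.9 and 90.2 CPM against 160, 162 and 156 (1.82-fold lower, adjusted p = 0.000596). Zbtb20, a factor of late progenitors, was 2.05-fold lower (11.6 ± 1.42 CPM against 23.7 ± 3.4, SD, n = 3 each; adjusted p = 0.0037). Nfib, which starts gliogenesis, was 2.35-fold lower (adjusted p = 0.00255, and 0.0542 without Brd8 replicate 1). Gja1, the connexin of radial glia, was the higher one at 146, 132 and 111 CPM against 66.3, 71.7 and 60 (1.96-fold, adjusted p = 0.00173). Ptn, a secreted growth factor that binds Ptprz1, was 3.48-fold higher (21.1 ± 5.42 CPM against 5.95 ± 1.35, SD, n = 3 each; adjusted p = 0.000123), and Ncan, a brain proteoglycan, 1.49-fold lower (adjusted p = 0.000936).

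Some pluripotency genes fell. Of 24 tested, 5 were lower and 0 higher, 20 lay below 0, and the median was -1.97. Pou5f1, the core pluripotency factor (chr17:35506018-35510772), stood at 1.55, 0.63 and 4.9 CPM with Brd8 guides and at 16.9, 13.6 and 10.4 in NT. The groups were apart, with Pou5f1 5.66-fold lower (adjusted p = 0.00269). L1td1, an RNA-binding protein of embryonic stem cells, was 10.1-fold lower (0.901 ± 0.593 CPM against 9.26 ± 1.62, SD, n = 3 each; adjusted p = 0.00256) and Dppa2 7.11-fold lower (adjusted p = 0.00375). Nanog and Esrrb completed the 5. The count was 3 without Brd8 replicate 1, 3 without Brd8 replicate 2, 3 without NT replicate 1 and 10 without Brd8 replicate 3. It was 8 with DESeq2, 13 with no low-count filter, 9 with only day 7 libraries and 10 with only the 2 groups in the fit. Other genes of embryonic stem cells fell with them: Lincenc1, a noncoding RNA at 0.164, 0.315 and 2.61 CPM against 8.26, 5.62 and 9.03, was 7.19-fold lower (adjusted p = 0.00281), and B3gnt7, a glycosyltransferase, 6.57-fold lower (adjusted p = 0.00294). Brd8 replicate 3 was the library nearest NT for Lincenc1, Pou5f1, Dppa2 and L1td1, whose log2 fold changes of -2.85, -2.50, -2.83 and -3.33 became -4.99, -3.60, -3.65 and -4.04 without it. The list summed to 294.4 to 351.1 CPM with Brd8 guides and 383.1 to 451.3 CPM in NT.

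**Figure D3:**
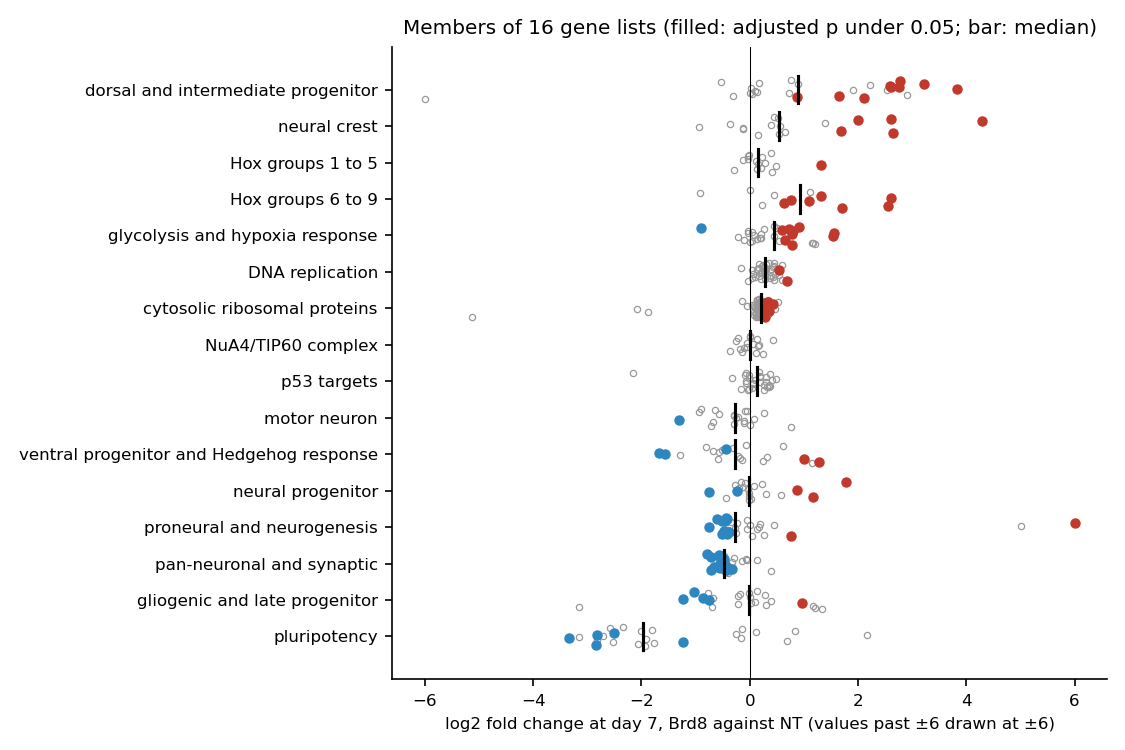
Log2 fold change at day 7 of the tested members of 16 gene lists, 1 point per gene; filled red and blue points passed as higher and lower, open points did not pass, and the black bar is the list's median (values past ±6 are drawn at ±6). Filled points lie to the right of 0 in the dorsal, crest and Hox 6 to 9 lists and to the left in the pan-neuronal and pluripotency lists, while the NuA4/TIP60 and p53 lists have none.

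Glycolytic enzymes rose. Of 30 tested genes of glycolysis and the hypoxia response 9 were higher and 1 lower (median 0.45). The 9 became 16 when no gene was filtered out, 16 with only the 2 groups and 15 with only day 7 libraries in the fit, and 3 without Brd8 replicate 1, 2 without Brd8 replicate 2, 3 when either NT replicate 2 or 3 was left out. Ldha, which turns pyruvate into lactate (chr7:46841475-46855627), stood at 241, 283 and 150 CPM with Brd8 guides and at 114, 54.9 and 58.8 in NT. Each Brd8 library lay above each NT library, and Ldha was 2.91-fold higher (log2 1.54 ± 0.329 SE, adjusted p = 0.00342). Eno1, a glycolytic enolase, stood at 814, 880 and 751 CPM against 599, 470 and 479 (1.58-fold, adjusted p = 0.0036). P4ha1, a collagen prolyl hydroxylase that hypoxia induces, was 1.72-fold higher (adjusted p = 0.00784, and 0.0743 without Brd8 replicate 2). Slc2a3, a glucose transporter named after its values were seen, was the lower one (1.87-fold, adjusted p = 0.0275), with p-values of 0.139, 0.103 and 0.251 without Brd8 replicate 1, Brd8 replicate 2 and NT replicate 1. None of 75 tested nuclear genes of oxidative phosphorylation passed, with a median of 0.10 (6 had an unadjusted p under 0.05, and DESeq2 called 1).

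Promoters of these genes were read because the list is defined by a transcriptional response: ACGTG is the core of the site bound by hypoxia-inducible factors, and CACGTG is the E-box bound by Myc. RefSeq windows of GRCm38.p6 (250 bases before to 50 after a start) were read, and a gene can have more than 1. For Ldha and Eno1, the 2 members with the smallest p, only the first window is shown. Another Ldha window, at chr7:46846832-46847131, held 0 ACGTG, and so did the other Eno1 windows. Those shown have ACGTG on either strand in capitals, 5′ to 3′ on the plus strand, at chr7:46845554-46845853 and chr4:150236458-150236757.
Ldha: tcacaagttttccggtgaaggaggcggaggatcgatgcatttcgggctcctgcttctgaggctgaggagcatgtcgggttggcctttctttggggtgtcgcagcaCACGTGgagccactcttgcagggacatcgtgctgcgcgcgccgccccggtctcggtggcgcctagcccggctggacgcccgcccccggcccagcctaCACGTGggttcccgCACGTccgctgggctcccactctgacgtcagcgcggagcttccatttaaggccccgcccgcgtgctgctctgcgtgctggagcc
Eno1: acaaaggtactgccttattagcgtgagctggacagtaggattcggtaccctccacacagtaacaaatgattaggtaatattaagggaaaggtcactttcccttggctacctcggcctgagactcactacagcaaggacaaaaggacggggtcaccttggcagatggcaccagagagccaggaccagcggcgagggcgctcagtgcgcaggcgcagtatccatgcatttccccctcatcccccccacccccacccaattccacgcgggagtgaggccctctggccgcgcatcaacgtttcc
CACGTG reads the same on both strands, so each of the 2 in the Ldha window shown counts as 2 of its 5 ACGTG, and the Eno1 window shown has 0. A gene was counted below if any of its windows held the motif. Over both strands, ACGTG was held by promoters of 5 of the 9 higher genes, 15 of the 18 matched list genes that were not called higher and 21.8% of all genes; CACGTG, which contains it, was held by 1 of 9, 2 of 18 and 8.09%. ACGTG was thus more common among list genes than among all genes. The list was chosen in part for the hypoxia response, so this excess is no separate result. Within the list ACGTG was not more common among genes called higher, whose number changed with the fit. Its part in the calls was not tested.

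Among growth and cell cycle genes the number of calls depended on the fit. Myc, the growth regulator, stood at 56.2, 52 and 37.1 CPM with Brd8 guides and 17.7, 21.2 and 13.7 in NT, without overlap, and was 2.76-fold higher (log2 1.46 ± 0.185 SE, adjusted p = 1.17e-05). Ccnd2, a D-type cyclin, stood at 1729, 1788 and 1528 CPM against 1013, 908 and 796 (1.86-fold, adjusted p = 0.000211). They were the 2 of 12 tested G1 cyclins and kinases that passed (4 with only the 2 groups in the fit). Of 39 DNA replication genes 2 passed (Pcna and Ccne2; 1 without Brd8 replicate 1, NT replicate 2 or NT replicate 3, but 4 with DESeq2, 9 with no low-count filter, 13 with only day 7 libraries and 17 with only the 2 groups in the fit), while 37 lay above 0 (median 0.28). Pcna, the replication clamp, was 1.45-fold higher (177 ± 11.1 CPM against 122 ± 4, SD, n = 3 each; adjusted p = 0.0042). Of 30 mitosis genes 2 passed (Ccna2 and Cdc25c) and 30 lay above 0 (median 0.24), but 0 passed without any 1 of Brd8 replicates 1 and 2 and NT replicates 1, 2 and 3. Mitosis calls were 4 with DESeq2 or with every gene kept, 8 with only day 7 libraries and 9 with only the 2 groups in the fit. Of 79 cytosolic ribosomal protein genes 8 were higher and 74 lay above 0 (median 0.20), with 1, 3, 1 and 1 calls without Brd8 replicate 1, Brd8 replicate 2, NT replicate 2 and NT replicate 3. The 8 became 15 with DESeq2, 14 with no low-count filter, 15 with only day 7 libraries and 23 with only the 2 groups in the fit. Rps16, 1 of the 8, was 1.29-fold higher (adjusted p = 0.00617, and 0.0521 without NT replicate 3), and reads of such genes can be shared with processed copies. Npm1, the nucleolar protein nucleophosmin, was 1.39-fold higher (1071 ± 86.5 CPM against 768 ± 23.5, SD, n = 3 each; adjusted p = 0.00234).

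By edgeR's quasi-likelihood test none of 30 p53 targets passed (9 had an unadjusted p under 0.05 and DESeq2 called 4). The same was true of 18 apoptosis regulators (4 and 0), 64 histone genes (13 and 2) and 7 Ink4 and Cip/Kip inhibitors (2 and 0). Over all 15204 genes, 2832 had an unadjusted p under 0.05. Of 24 BMP and TGF-beta genes 3 were higher and 0 lower. Of 28 Wnt genes 4 were higher (7 with no low-count filter, 8 in the fit on the 2 groups and 8 in that on day 7 libraries; 1 without Brd8 replicate 1, 0 without Brd8 replicate 2, 2 when NT replicate 2 and 0 when NT replicate 3 was left out) and 4 lower (2 without Brd8 replicate 2, NT replicate 1 or NT replicate 3). The Wnt list had a median of 0.62 with 18 above 0, and its highest member was Wnt1, named above among the called dorsal genes. Sfrp1, a secreted Wnt inhibitor, was 1.58-fold lower (250 ± 75 CPM against 395 ± 22.6, SD, n = 3 each; adjusted p = 0.00201), and Wnt7b, a ligand of the neural tube, was 1.73-fold lower (21.9 ± 3.88 against 37.8 ± 4.54 CPM; adjusted p = 0.00319). Of 21 tested genes of FGF and MAPK feedback 2 were higher and 2 lower, with a median of -0.13. The highest member was Fgf15, given above. Il17rd and Dusp4, both feedback inhibitors of FGF signalling, were 1.81-fold and 1.39-fold lower (adjusted p = 0.00219 and 0.0037). Of 18 tested Notch pathway genes 2 were higher and 2 lower, with a median of -0.04 and 5 above 0. Jag1, a Notch ligand, was 1 of the higher ones at 1.44-fold, with 73, 65.8 and 63.4 CPM against 47, 46.8 and 46.4 (adjusted p = 0.00386). Phc1, a PRC1 subunit, was 1.24-fold lower (adjusted p = 0.00368).

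The lower genes were long. Of the 504 lower genes with a span in GENCODE M21, 203 (40.3%) exceeded 100 kb, against 27 of 194 higher genes (13.9%) and 15.1% of all tested genes. The median span was 67.2 kb among the lower genes, 20.2 kb among the higher and 24.2 kb over all genes tested. The part that gene length plays in the test, or in these differences, was not tested.

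Whether the day 7 differences were still present later was read in other libraries: 2 Brd8 and 3 NT libraries at day 9, and 3 and 3 at day 11. At day 9, 15.5% of all genes were called (7.72% higher, 7.81% lower), and at day 11 17.8% (10.3% higher, 7.48% lower). Of the 198 genes higher at day 7, 125 were higher and 3 lower at day 9, and 120 were higher and 4 lower at day 11. Of the 524 genes lower at day 7, 344 were lower and 0 higher at day 9, whereas at day 11 211 were lower and 19 higher. Without Brd8 replicate 2 of day 9 the count of day 9 calls was 845 in place of 2360. In NT cells between days 9 and 11, where 10.6% of all genes rose and 12.9% fell, 37 of the 198 rose and 58 fell, and 135 of the 524 rose and 84 fell. The balance of that comparison turned with the scaling: 1615 genes rose and 1960 fell in the reported fit, 1747 and 1716 with DESeq2 size factors, and 1504 and 1369 with only the 2 groups in the fit.

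Hoxb9, Pax3, Dbx1, Nkx2-2, Nes and Ptprz1 passed in the same direction on all 3 days. Hoxb9 stood at 360 ± 92.7 CPM (SD, n = 2) at day 9 and 548 ± 42.2 (n = 3) at day 11, against 55.8 ± 17.8 and 74.9 ± 11.8 in NT (n = 3 each), with log2 fold changes of 2.67 and 2.87 (adjusted p = 6.11e-07 and 7.58e-09). Pax3 had log2 fold changes of 2.75, 3.46 and 5.31 at days 7, 9 and 11, and Dbx1 of 1.66, 2.85 and 3.06. In NT, Pax3 was at 0.526 ± 0.757 CPM at day 11 (SD, n = 3), so the last value rests on few counts. Nkx2-2 was lower by -1.94 and -1.75 on the log2 scale at days 9 and 11, Nes by -0.64 and -0.82, and Ptprz1 by -1.43 and -1.49.

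Other genes differed in their response between days, by the test of the effect at day 11 minus that at day 7 (692 genes passed, 4.55% of all: 2.98% upward and 1.57% downward from day 7). Sox10 had risen in NT to 98.9 ± 15.2 CPM by day 11 (SD, n = 3) against 176 ± 23.1 with Brd8 guides, and its log2 fold change of 0.83 no longer passed (adjusted p = 0.173; difference between days -3.46 ± 0.735 SE, adjusted p = 0.00323). Myc stood at 25 ± 3.26 against 34.5 ± 3.99 CPM at day 11 (SD, n = 3 each; difference between days -1.93, adjusted p = 7.29e-06). Lhx4, lower at day 7, was at 24.2 ± 4.71 against 16.3 ± 3.46 CPM at day 11 (SD, n = 3 each), where it was higher (log2 0.57, adjusted p = 0.0382). Wnt7b likewise went from lower to higher, with 55.2 ± 10.7 against 22.8 ± 7.03 CPM at day 11 (log2 1.28, adjusted p = 5.15e-07). Dcx, 1.42-fold lower at day 7, had a log2 fold change of -0.62 at day 9 (adjusted p = 0.000203) and of -0.06 at day 11 (adjusted p = 0.766), but the difference between days 11 and 7 did not pass for it. Of the 32 pan-neuronal genes, 17 were lower at day 7, 25 at day 9 and 10 at day 11.

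**Figure D4:**
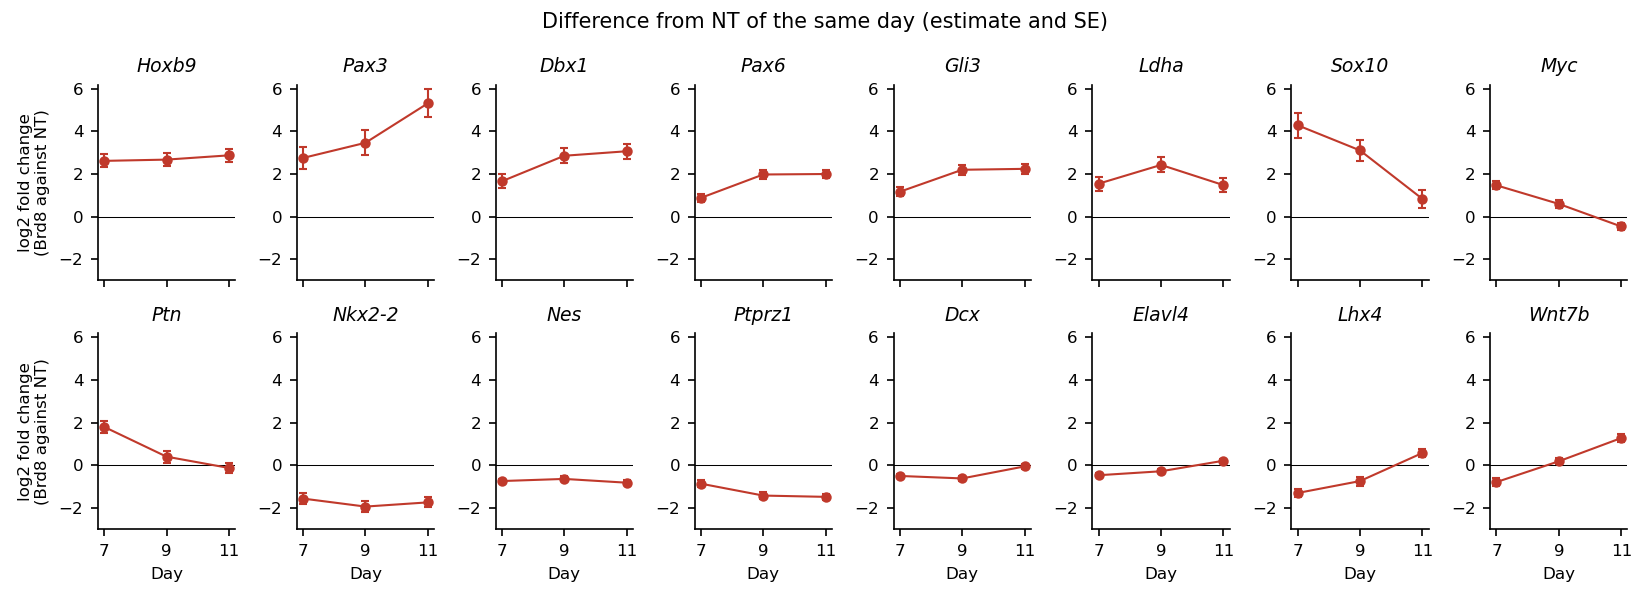
Log2 fold change (Brd8 guides against NT of the same day) of 16 genes at days 7, 9 and 11, with the SE as an error bar and a line at 0; all panels share 1 axis. Hoxb9, Pax3, Dbx1, Pax6, Gli3 and Ldha stay above 0 and Nkx2-2, Nes and Ptprz1 below 0, while Lhx4 and Wnt7b cross from below to above 0.

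To ask what differed from the other guides, the Brd8 libraries were set against the mean of Eed, Ezh2 and Nr6a1 guides at day 7 (8 libraries), a contrast that uses no NT library. Eed and Ezh2 encode core subunits of the Polycomb repressive complex PRC2, and Nr6a1 an orphan nuclear receptor. In that contrast 25 genes were higher and 78 lower, 0.164% and 0.513% of those tested, 0.677% together. That imbalance depended on the fit: 60 were higher and 53 lower with only the compared groups in it, and 111 and 115 with only day 7 libraries. The count of 103 fell to 12 without Brd8 replicate 1, 11 without Brd8 replicate 2 and 58 without Nr6a1 replicate 2, and was 179 without Brd8 replicate 3.

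Cyp26b1 stood at 14.1, 22.7 and 11 CPM with Brd8 guides, 5.24, 4.69 and 4.02 with Eed, 3.59, 3.67 and 5.31 with Ezh2 and 9.17 and 5.63 with Nr6a1 guides. All Brd8 libraries lay above all 8 others (log2 1.60 ± 0.246 SE, adjusted p = 0.000457, and 0.0506 without Brd8 replicate 2). Hoxb9 held 229 ± 78.7 CPM with Brd8, 94.8 ± 18.4 with Eed, 120 ± 30.5 with Ezh2 (SD, n = 3 each) and 81.5 ± 12.9 with Nr6a1 guides (n = 2), with 1 Ezh2 library above the lowest Brd8 library. Its difference passed (log2 1.23 ± 0.227 SE, adjusted p = 0.0044), but not without Brd8 replicate 1 (0.0545) or 2 (0.123).

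Nes, Ptprz1 and Bcl11b were lower in this contrast under every alternative tried. Nes held 326 ± 19.1 CPM with Brd8, 387 ± 8.65 with Eed, 461 ± 27.1 with Ezh2 (SD, n = 3 each) and 587 ± 23.9 with Nr6a1 guides (n = 2), without overlap between Brd8 and any other group (log2 -0.53, adjusted p = 0.00138). Ptprz1 held 87.5 ± 11.9, 95.9 ± 8.65, 127 ± 7.77 and 393 ± 82.7 CPM in the same order; the Brd8 and Eed libraries overlapped, and the difference of -0.95 on the log2 scale (adjusted p = 0.000136) has the high Nr6a1 level in its mean. Bcl11b held 1.33 ± 0.308, 4.17 ± 0.774, 4.6 ± 0.865 and 25.1 ± 15.4 CPM, with the Brd8 libraries lowest of all (log2 -2.55, adjusted p = 5.51e-05). For Nes and Bcl11b too, the highest level, that of Nr6a1 guides, is in the mean, and the Eed group lay nearest to Brd8.

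Many of the day 7 differences did not set Brd8 apart from the other guides. Pax3 held 22.3 ± 8 CPM with Brd8, 38.3 ± 13.3 with Eed, 14.6 ± 6.52 with Ezh2 (SD, n = 3 each) and 2.54 ± 1.1 with Nr6a1 guides (n = 2). Its difference from the mean of the other guides was 0.97 on the log2 scale (95% interval 0.20 to 1.74, adjusted p = 0.26). Dbx1 held 59.9 ± 12.7, 76.1 ± 6.08, 50.5 ± 2.74 and 20.8 ± 0.129 CPM in that order, and its difference was 0.47 (95% interval -0.05 to 0.99, adjusted p = 0.466). Dcx, at 872 ± 63.6 CPM with Brd8 and 774 ± 105 with Eed guides, differed from the mean of the other guides by -0.29 (95% interval -0.46 to -0.11, adjusted p = 0.125). These misses do not show that the guides act alike.

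**Figure D5:**
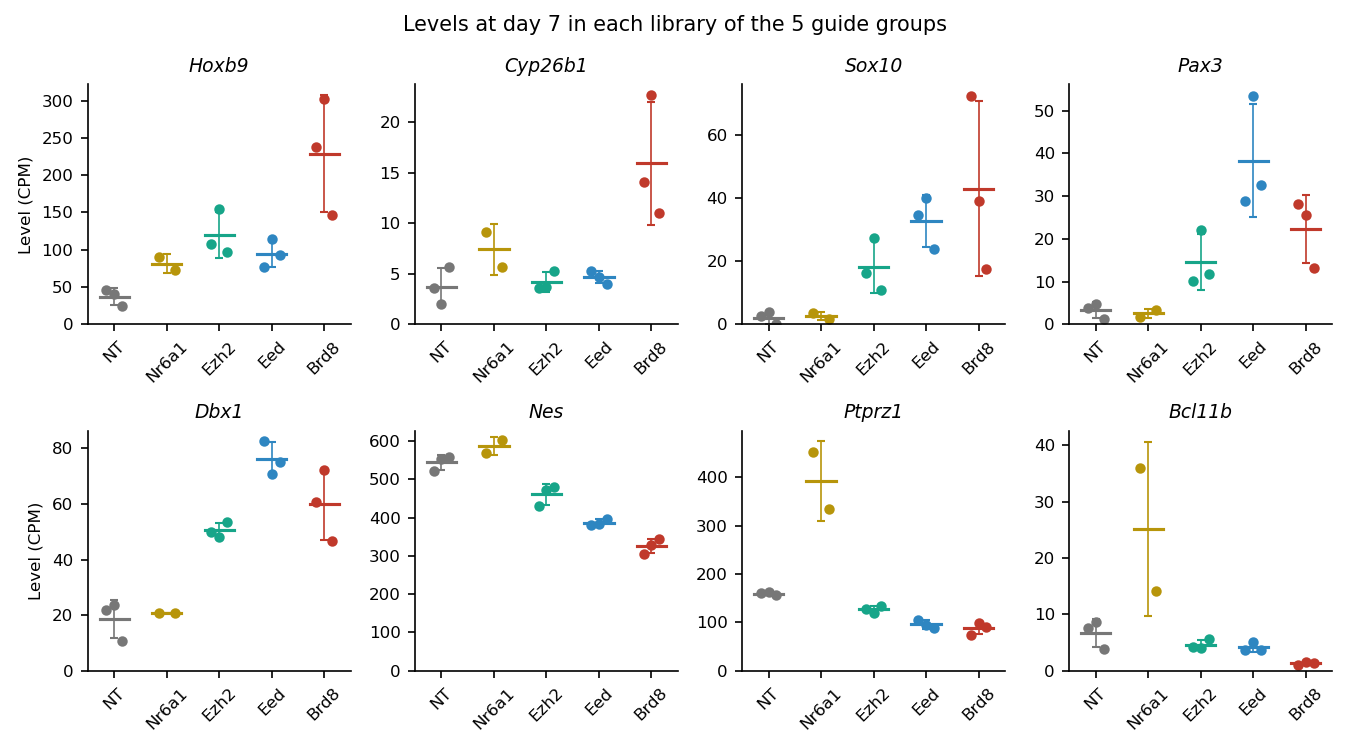
Level in CPM of 8 genes at day 7 in each library with NT, Nr6a1, Ezh2, Eed or Brd8 guides (2 libraries for Nr6a1, 3 for the others), with the mean as a horizontal bar and the SD as an error bar; each panel has its own axis from 0. Brd8 libraries are the highest for Cyp26b1 and the lowest for Nes and Bcl11b, while Eed libraries reach or pass them for Pax3 and Dbx1.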

How the data were processed

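The values were estimated counts per gene symbol and library, which the authors deposited without normalization; 2.95% had a fraction, so all were rounded to whole numbers. Of tools and builds, DESeq2 and mm10 are listed in the submitters' processing notes. Which aligner, quantifier and annotation were used is not given in the sources used here. Library source is genomic in the labels, while the protocols describe RNA. Members and gene lists were chosen with earlier results of these data known.

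Testing used edgeR 4.0.16 (R 4.3.3): filterByExpr by group (15204 of 24410 symbols tested, 9206 not), TMM scaling and 1 quasi-likelihood model with a mean for each of 15 groups over all 41 libraries, so that all groups share 1 estimate of the spread. Tests were two-sided, with Benjamini-Hochberg adjustment over all genes tested and a threshold of 0.05. Levels are CPM on TMM-scaled library sizes, with the SD over libraries; fold changes come from the model, with their SE. Rn45s, a ribosomal RNA gene, took 13.1% to 14.7% of counts in the 6 libraries. A count of 0 in 1 of them allows up to 0.145 to 0.315 CPM (3 counts), for counting error only. The pipeline was tested on simulated data.

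Genes were named by a rule: Brd8, the NuA4/TIP60 members, the 12 highest and 12 lowest fold changes among called genes with at least 2 CPM and no overlap, the 6 smallest p-values each way, and up to 4 members of each of 52 lists. From these, mainly genes that passed in every alternative are printed. Same-numbered replicates did not deviate together (correlations 0.005, 0.015 and 0.009), so the numbers were not taken to pair libraries. Alternatives were DESeq2 1.42.0 (size factors, or its Wald test), a blocking factor for the replicate number, all genes kept whatever their counts, fits on fewer groups, low-agreement libraries (highest correlation with a library of their own group under 0.95) or Rn45s left out, and each replicate left out in turn. Positions are GENCODE M21 on GRCm38, the assembly of mm10, matched by symbol. Not every called gene is reported here.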

Additional observations from a re-analysis of the deposited data

Results flagged for a closer look

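For 16 of the genes given, the difference between Brd8 guides and NT at day 11 minus that at day 7 passed its own test (log2 scale, edgeR's quasi-likelihood test). It was negative for Sox10 (-3.46), Myc (-1.93), Ptn (-1.93), Olig2 (-0.78) and Neurog3 (-7.98, a fitted value that rests on an NT group with 0 counts and is no bound). The difference was positive for Lhx4 (1.88), Wnt7b (2.07), Dusp4 (0.88), Nova2 (0.62), Tubb3 (0.49), Elavl3 (0.44), Elavl4 (0.68), Isl1 (1.13), Pax6 (1.12), Gli3 (1.08) and Slc2a3 (1.48). The last was lost without NT replicate 1 of day 7 (adjusted p = 0.0626). Gli3, Elavl3, Isl1 and Olig2 were each lost when any 1 of several libraries was left out, of both days and both groups. Groups of 3 libraries were too small for an outlier rule.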

How the results depend on the processing

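Of 63 genes given that were called at day 7, 57 were called in every alternative. Genes were printed mainly because they passed in every alternative, so this share does not describe the 722 calls at large. The 722 calls at day 7 were 1179 when no gene was filtered out and 1192 when the fit held only the 2 groups, and ranged from 233 to 899 when 1 replicate was left out; 6 other alternatives gave 711 to 1050. The day 9 count ranged from 845 to 2185 with 1 replicate left out. For Brd8 against the mean of the other guides, 103 calls became 198 with the DESeq2 Wald test, 537 with no low-count filter and 226 with only day 7 libraries in the fit, and 11 to 179 with 1 replicate left out. Of the calls at day 7, 72.6% were lower in the reported fit, 59% with only the 2 groups, 60.1% with only day 7 libraries and 82.4% without NT replicate 3, the lowest and highest shares being 59% and 82.4%. With the replicate number as a block there were 772 calls at day 7, 2408 at day 9, 2730 at day 11 and 120 against the other guides. Same-numbered libraries correlated by no more than 0.015. Genes near the floor of 3 counts, such as Neurog3, are limited by depth.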
